A study of Mus musculus with 8 samples.

Results

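The fibroblast growth factor (FGF) ligands and receptors examined here are 9 genes of the mouse molar germ. They comprise the enamel knot ligands Fgf4, Fgf9 and Fgf20, the mesenchymal ligands Fgf3 and Fgf10, and the receptors Fgfr1, Fgfr2, Fgfr3 and Fgfr4. The members are the 24 probe sets that the platform annotation names with exactly 1 of these genes, out of 34945 probe sets named with a single gene, and the 9 genes stand among 18193 with such a probe set. RNA came from mandibular molar tooth germs of embryos whose mothers, outbred ICR mice with no genetic change stated, received 1 intraperitoneal injection at embryonic day 14, and the germs were dissected 24 hours later. The first group received 5E1, a monoclonal antibody that binds Shh, at 10 mg/kg, and its control group received the isotype-matched antibody 40-1a, directed at β-galactosidase, at 10 mg/kg. The third group received cyclopamine, an antagonist of the Hedgehog transducer Smo, at 10 mg/kg, and the last received 1 ml of phosphate-buffered saline (PBS). Each group had 2 arrays, called biological replicates in the labels. The labels state neither the litters or the pooling behind a replicate nor the vehicle of cyclopamine, so p-values measure only the spread between these samples.

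FGF ligands bind receptor tyrosine kinases on the cell surface together with heparan sulphate, and the activated receptors signal through the Ras and MAP kinase cascade, which induces its own inhibitors of the Dusp and Sprouty families. In the molar germ the enamel knot, a cluster of non-dividing epithelial cells, secretes Fgf4, Fgf9 and Fgf20 together with Shh, BMPs and Wnts, and these ligands act on the surrounding epithelium and on the mesenchyme below it. The mesenchyme answers with Fgf3 and Fgf10, which signal back to the dental epithelium through the epithelial isoforms of the receptors.

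Fgf3 and Fgf4, a mesenchymal and an enamel knot ligand, are neighbours on mouse chromosome 7. In RefSeq on build GRCm38.p6, Fgf3 spans chr7:144838612-144843348 and Fgf4 spans chr7:144861386-144865245, with 18037 bases and 0 annotated genes between them. Fgf9, the gene with the smallest p of the 9 in the antibody comparison, spans chr14:58070671-58112854. Of the other ligands, Fgf20 lies at chr8:40279166-40286953 and Fgf10 at chr13:118714699-118792573. The receptors lie at chr8:25518759-25575718 for Fgfr1, chr7:130162451-130266808 for Fgfr2, chr5:33721724-33737068 for Fgfr3 and chr13:55152818-55168759 for Fgfr4. The 250 bases before the start are shown for the neighbours Fgf3 and Fgf4 and for Fgf9. On the probe set of each with the highest mean level, Fgf3 and Fgf4 had the same order of groups by mean log2 level. Their Pearson r was 0.44 over 8 arrays. For Fgf4 that order rests on a log2 gap of 0.00037 between PBS and 5E1. The other Fgf4 probe sets had their highest mean signal in 5E1, at 156, 191 and 174, against 78.3, 81.7 and 74.7 in PBS. All 3 windows are on the plus strand, at chr7:144861136-144861385 for Fgf4, chr14:58072436-58072685 for Fgf9 and chr7:144838362-144838611 for Fgf3. The Fgf9 window lies inside the annotated extent of its gene. Capitals mark a match to a TCF/LEF motif.
Fgf4: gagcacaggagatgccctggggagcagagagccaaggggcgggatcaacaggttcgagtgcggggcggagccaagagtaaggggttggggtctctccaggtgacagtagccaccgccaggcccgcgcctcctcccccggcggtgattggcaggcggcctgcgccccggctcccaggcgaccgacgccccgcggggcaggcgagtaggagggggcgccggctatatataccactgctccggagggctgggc
Fgf9: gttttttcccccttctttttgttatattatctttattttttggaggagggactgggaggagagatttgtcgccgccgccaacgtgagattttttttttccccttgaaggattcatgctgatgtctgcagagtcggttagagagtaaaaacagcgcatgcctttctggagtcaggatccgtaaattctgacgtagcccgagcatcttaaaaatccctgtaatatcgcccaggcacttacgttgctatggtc
Fgf3: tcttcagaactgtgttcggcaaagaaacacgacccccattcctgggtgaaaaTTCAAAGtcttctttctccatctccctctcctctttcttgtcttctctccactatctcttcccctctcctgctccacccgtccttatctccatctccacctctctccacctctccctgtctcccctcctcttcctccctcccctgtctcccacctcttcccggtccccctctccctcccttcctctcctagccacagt
The windows searched are the 250 bases before each RefSeq start, on both strands, for the GLI motif GACCACCCA, the TCF/LEF motif CTTTGAA and the ETS motif ACCGGAAG, none of which contains another. Of the 9 genes, 7 had a window, 8 windows in all, and Fgf20 and Fgfr1 were not covered. The Fgf3 window held the TCF/LEF motif on the minus strand, 198 bases before the start, and was the only 1 of the 8 to hold it. That motif was in 4.46% of all 32851 windows. The GLI motif was in 0 of the 8 windows, against 0.225% of all windows, and the ETS motif in 0 of the 8, against 1.72%. A match is a run of letters and not a bound site, and its absence says only that these letters were not in the window.

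The arrays did not group by injection. By correlation over the genes tested, they were divided into 3 clusters, a number set by choice. The r values given next come from the same correlations that formed the clusters. The first replicates of 5E1, 40-1a and PBS made up cluster 1, the second replicates of 5E1, 40-1a and cyclopamine made up cluster 2, and the remaining pair, replicate 1 of cyclopamine with replicate 2 of PBS, made up cluster 3, with r of 0.977 to 0.984 within clusters and 0.942 to 0.972 between them. No gene passed the limma test over all genes in any comparison, at a Benjamini-Hochberg adjusted p of 0.05. The Hedgehog feedback gene Ptch1, a receptor that binds Shh, came nearest in 5E1 against 40-1a, with a limma log2 difference of -2.31 (SE 0.30) and an adjusted p of 0.969. Gli1, a transcription factor and Hedgehog target, was at -2.22 (SE 0.40) and Hhip, a membrane protein that sequesters the ligand, at -1.58 (SE 0.46) in the same comparison. Both 5E1 arrays of Hhip, at 35.0 and 31.5, lay below the filter signal of 60.3, and its difference was -1.04 without 40-1a replicate 1. In cyclopamine against PBS the log2 differences were -0.27 (SE 0.30) for Ptch1, 0.082 (SE 0.40) for Gli1 and -0.63 (SE 0.46) for Hhip. Markers of the germ's own tissues were present, with 13 of 13 dental epithelium markers and 14 of 14 dental mesenchyme markers on the array above the level filter. Skeletal muscle markers were also detected, with sums of 5879 and 7148 in 5E1, against 1814 and 15977 in 40-1a, and of 4057 and 18461 in cyclopamine, against 3017 and 6731 in PBS.

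The antibody comparison asks whether the FGF genes differ when Shh is bound. On their tested probe sets, Fgf9 and Fgf20 had higher signal on both 5E1 arrays than on all 6 other arrays. The signals are the deposited MAS5 values on a linear scale, on which every array has a trimmed mean of 500. For each gene the tested probe set is the one with the highest mean level. Fgf9, a ligand of the enamel knot and inner dental epithelium, had a signal of 296 and 594 on the 5E1 arrays, against 187 and 213 on the 40-1a arrays, with 198 and 257 on the cyclopamine arrays and 176 and 209 on the PBS arrays. The lower 5E1 array lay above every array of the other groups, and the other 3 groups overlapped one another. The means were 445 ± 211 in 5E1 and 199.99 ± 18.7 in 40-1a (SD, n = 2 each). On the scale of log2(signal + 9), which understates the change of weak probe sets, the difference was 1.04 (SE 0.35, 95% interval 0.23 to 1.85), or 2.06-fold higher. The unadjusted p was 0.0183, and the limma p adjusted by Benjamini-Hochberg over all 13008 genes tested was 1.00, so Fgf9 did not pass. In bulk tissue a larger number of expressing cells and more RNA per cell cannot be told apart.

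Fgf20, the other enamel knot ligand with this pattern, had a signal of 325 and 779 on the 5E1 arrays, against 168 and 303 on the 40-1a arrays, with 142 and 240.2 on the cyclopamine arrays and 143 and 237 on the PBS arrays. Its lower 5E1 array was only slightly above the higher 40-1a array. The means were 552 ± 321 in 5E1 and 236 ± 95.3 in 40-1a (SD, n = 2 each). The log2 difference was 1.12 (SE 0.50, 95% interval -0.037 to 2.29), with an unadjusted p of 0.0560 and a limma adjusted p of 1.00. The interval includes 0. Replicate 2 was the higher array in all 4 groups, and with the array clusters as a block, an alternative chosen after seeing the data, the same difference had an SE of 0.22, an unadjusted p of 0.00108 and a limma adjusted p of 0.521. Fgf9 under that block had an SE of 0.25, an unadjusted p of 0.00324 and a limma adjusted p of 0.676.

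Fgf4, the ligand used most often to mark the enamel knot, is measured by 4 probe sets, and on the one with the highest mean level its arrays lay close together. That probe set had a signal of 135 and 119 in 5E1, against 103 and 112 in 40-1a. It had 76.2 and 105 in cyclopamine, against 96.4 and 166 in PBS. The highest of the 8 arrays was PBS replicate 2, and the 5E1 and 40-1a arrays did not overlap. The log2 difference of 5E1 and 40-1a was 0.22 (SE 0.35), within 1 SE of 0, and 0.13 without 5E1 replicate 1.

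The other 3 Fgf4 probe sets share a single sequence accession in the annotation, so they are not independent of one another, and they gave larger differences. They were 0.78 (SE 0.39), 1.05 (SE 0.69) and 0.69 (SE 0.54) in the fit of all 23594 probe sets, and none passed. The first had 151 and 162 in 5E1, against 61.8 and 121 in 40-1a. The second, a type whose probes can match other transcripts, had 146 and 236 in 5E1, against 61.8 and 115 in 40-1a. The third had 239.9 and 108 in 5E1, against 149 and 62.3 in 40-1a. In the first and second the 5E1 arrays lay above both 40-1a arrays, and in the third the groups overlapped. With the mean of all probe sets of a gene in place of the brightest, the Fgf4 difference was 0.69. The other Fgf9 probe set had 186 and 376 in 5E1, against 186 and 200.3 in 40-1a, so its groups overlapped, with a difference of 0.44 (SE 0.35). Its lower 5E1 array also lay below both PBS arrays, at 267 and 221. With the mean of probe sets the Fgf9 difference was 0.74. Fgf20 has 1 probe set.

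**Figure D1:**
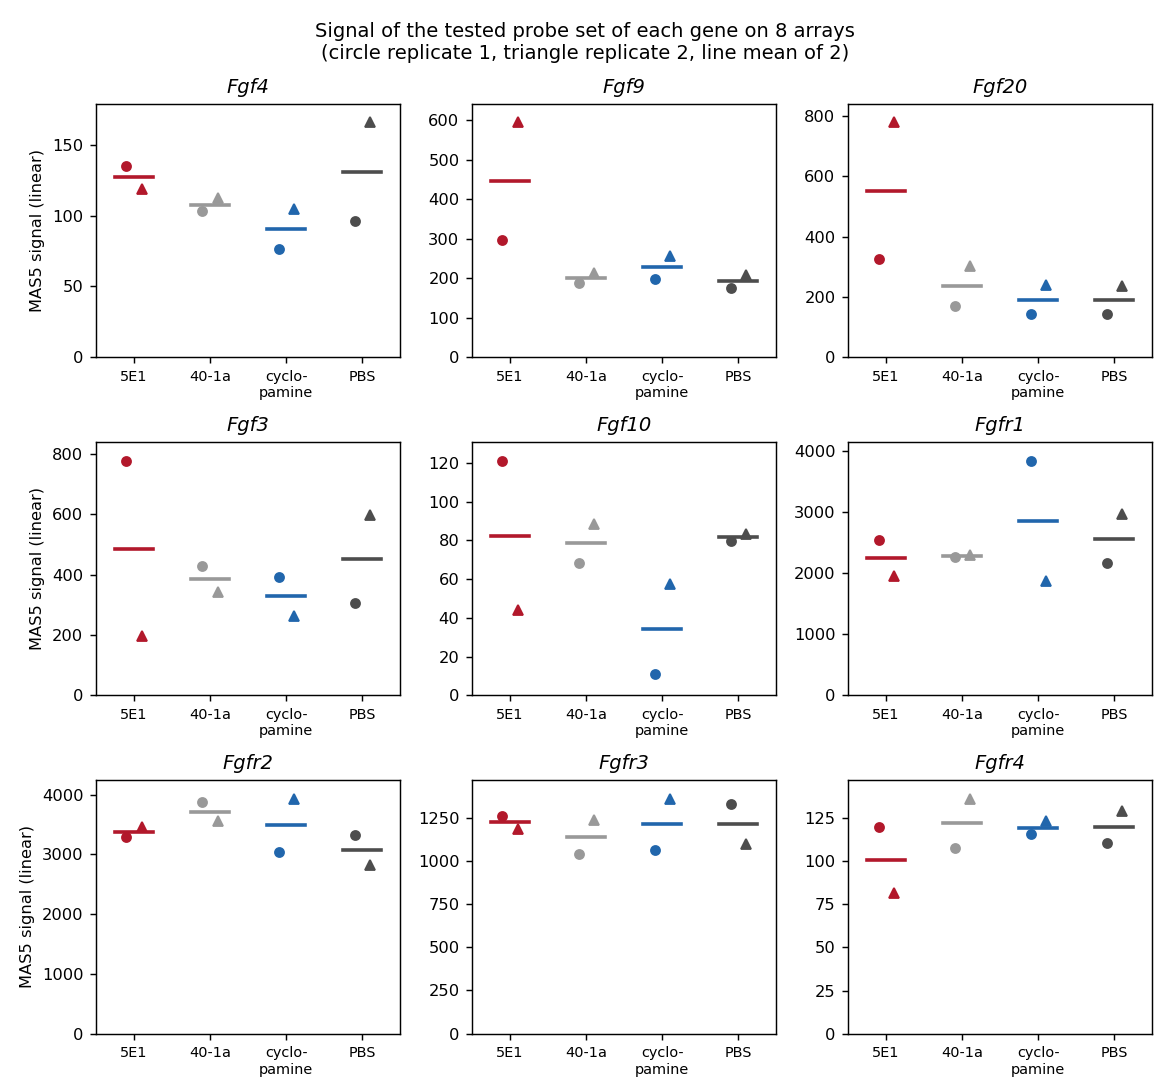
MAS5 signal on a linear scale (vertical axis, from 0) of the tested probe set of each of the 9 genes, by injection group (horizontal axis), with circles for replicate 1, triangles for replicate 2 and a line at the mean of 2 arrays. Fgf9 and Fgf20 sat at 296 and 594 and at 325 and 779 on the 5E1 arrays, above all 6 other arrays, while the 4 receptors had groups that mostly overlapped.

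The size of these differences depended on single arrays. Without 5E1 replicate 2 the log2 difference of Fgf9 was 0.55 and without 5E1 replicate 1 it was 1.53. For Fgf20 the matching values were 0.51 and 1.74, and it was 0.72 without 40-1a replicate 1. The direction was the same within each cluster that held both antibody groups: Fgf9 differed by 0.64 in cluster 1 and 1.44 in cluster 2, and Fgf20 by 0.91 in cluster 1 and 1.33 in cluster 2. That direction was fixed in advance, because both 5E1 arrays lay above both 40-1a arrays for each gene, so it adds no support. The arrays compared within a cluster were also not alike in every tissue, as the skeletal muscle values below show.

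Markers of the epithelium, where both ligands are made, were measured beside them. The summed signal of 13 dental epithelium markers ran from 64219 to 106529 over the 5E1 arrays, against 66894 to 102901 over the 40-1a arrays. None of the 13 had groups that did not overlap, where 8.66% of all genes were higher and 10.8% lower without overlap. The mean log2 difference of these markers was 0.011 within cluster 1 and 0.20 within cluster 2. Within each of the 4 groups the array with the higher epithelium sum had the higher signal of Fgf9 and of Fgf20, which 14.3% of all genes tested did. The mean log2 difference of 15 skeletal muscle markers was 1.53 in cluster 1 and -1.24 in cluster 2. The part of epithelium or muscle content was not tested, either in the spread between replicates or in the group differences of Fgf9 and Fgf20.

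**Figure D2:**
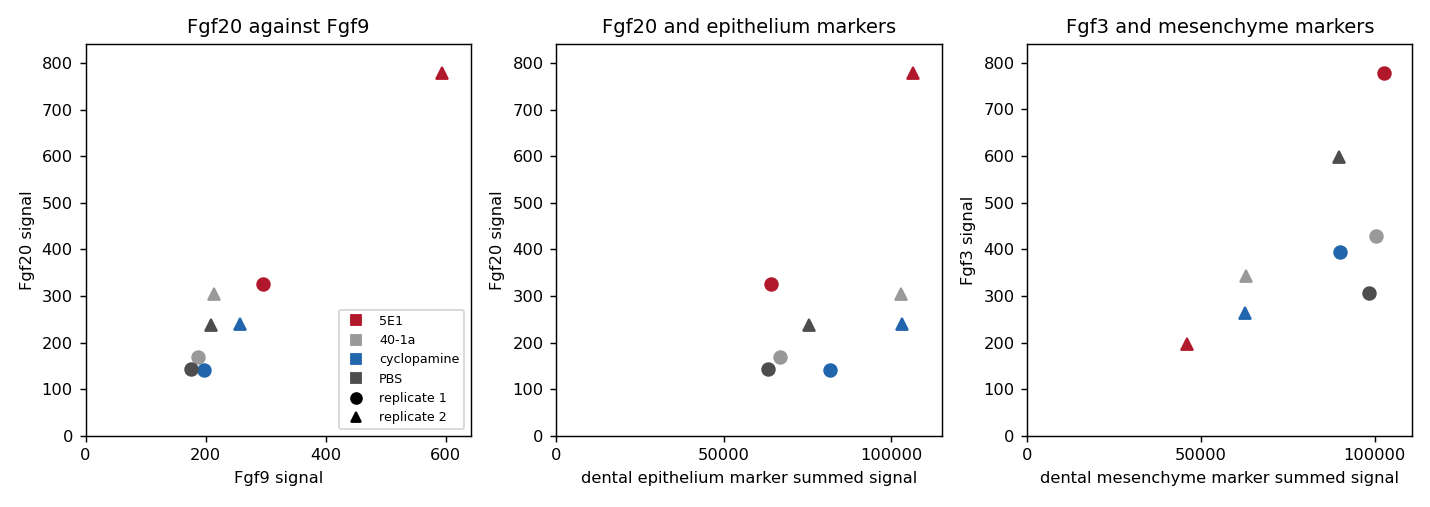
Each point is 1 of the 8 arrays, coloured by group, with circles for replicate 1 and triangles for replicate 2. The left panel plots Fgf20 signal against Fgf9 signal, the middle panel Fgf20 signal against the summed signal of the dental epithelium markers, and the right panel Fgf3 signal against that of the dental mesenchyme markers. 5E1 replicate 2 had the highest Fgf9 and Fgf20 and the highest epithelium sum, and it had the lowest Fgf3 and the lowest mesenchyme sum.

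Fgf3 and Fgf10, the ligands of the dental mesenchyme, had 5E1 arrays on both sides of the 40-1a arrays. Fgf3, which signals to the inner dental epithelium, had a signal of 778 and 196 in 5E1, against 429 and 344 in 40-1a. It had 394 and 264 in cyclopamine, against 305 and 597 in PBS. The highest and the lowest of the 8 arrays were both 5E1 arrays, a 3.97-fold range, so the group mean of 487 ± 411 described neither. Its log2 difference was 0.85 within cluster 1 and -0.78 within cluster 2.

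The 2 other Fgf3 probe sets also had 5E1 arrays far apart. One had 595 and 126 in 5E1, against 616 and 151 in 40-1a, so its 40-1a arrays were about as far apart. It is of the type whose probes can match other transcripts. The other had 421 and 138 in 5E1, against 183 and 206 in 40-1a. On all 3 probe sets 5E1 replicate 1 was thus the higher of its group. The summed signal of the 14 dental mesenchyme markers was 102643 on 5E1 replicate 1 and 45892 on 5E1 replicate 2, against 100437 and 62862 on replicates 1 and 2 of 40-1a. All 14 of these markers had a log2 difference below 0 in this comparison, and for 1 the groups did not overlap, against 10.8% of all genes. The mean log2 difference of these markers was -0.052 in cluster 1 and -0.74 in cluster 2. Fgf3 was higher on the array with the higher mesenchyme sum in 3 of the 4 groups, and 41.6% of all genes were so in at least 3. Fgf10, the other mesenchymal ligand, was so in 1 of the 4. The part of mesenchyme content in the Fgf3 values was not tested.

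Fgf10, a ligand that maintains dental epithelial progenitors in the mouse incisor, lay close to the level filter, so its values are the least certain of the 9. It had 121 and 43.9 in 5E1, against 68.5 and 88.7 in 40-1a. The highest and the lowest of these 4 arrays were both 5E1, and the log2 difference was 0.75 within cluster 1 and -0.89 within cluster 2. Neither mesenchymal ligand had a group difference beyond its SE in this comparison.

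The tested probe sets of the 4 receptors spanned 1.31-fold to 2.06-fold over the 8 arrays. Fgfr1, a receptor present in both dental tissues, had a signal of 2550.2 and 1948 in 5E1, against 2259 and 2299.6 in 40-1a. It had 3843 and 1867 in cyclopamine, against 2164 and 2963 in PBS. Its highest arrays were the members of cluster 3, cyclopamine replicate 1 and PBS replicate 2, and all groups overlapped. Fgfr2, whose epithelial isoform binds Fgf3 and Fgf10, had 3294 and 3459 in 5E1, against 3875 and 3553 in 40-1a. Both 5E1 arrays were lower, but the difference was within 1 SE of 0, and the 8 arrays spanned a 1.39-fold range.

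Fgfr3, a receptor best known for restraining bone growth, had 1262 and 1184 in 5E1, against 1039 and 1238 in 40-1a. It had 1064.5 and 1358 in cyclopamine, against 1329 and 1095 in PBS. Its groups overlapped throughout, over a 1.31-fold range, the narrowest of the 9 genes on their tested probe sets. Fgfr4, a receptor of developing muscle and liver, had 119.6 and 81.6 in 5E1, against 107 and 136 in 40-1a. Its tested probe set is of the type whose probes can match other transcripts, and 2 of its 5 probe sets lay below the filter.

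Further receptor probe sets show how far 1 array could move a value. The second Fgfr3 probe set had 25.6 and 246 on the cyclopamine arrays, against 152 and 260 on the PBS arrays, and 184 and 213 in 5E1 against 229 and 229 in 40-1a. A second Fgfr2 probe set had 1134 and 2852 on the cyclopamine arrays, against 2460.5 and 2569.5 on the PBS arrays, with 2176 and 2604 in 5E1 against 2398 and 2859 in 40-1a. On both, cyclopamine replicate 1 was the lowest of the 8 arrays. That array also had the highest ratio of 3' to 5' signal, 0.886 for Gapdh against 0.673 to 0.764 on the other arrays, the highest 18S signal, 2548 against 52.9 to 448, and the fewest probe sets above the filter level, 26163. The part of RNA quality in these values was not tested.

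Read together, 0 of the 9 genes passed in 5E1 against 40-1a, as did 0% of all genes tested. In the same limma comparison 1 of the 9, Fgf9, had an unadjusted p below 0.05, which 1.22% of all genes had. The arrays did not overlap for 3 genes that were higher in 5E1, Fgf4, Fgf9 and Fgf20, against 8.66% of all genes, and for 1 that was lower, Fgfr2, against 10.8% of all genes. Both 5E1 arrays lay above the other 6 for 2 of the 9 genes, against 1.78% of all genes. Fgf9 and Fgf20 were at least 1 SE from 0, as were 17.7% of all genes, and the other 7 genes had log2 differences of -0.27 to 0.22. The median over the 9 was 0.031, against -0.013 over all genes tested, and 5 were above 0, as were 46.7% of all genes. The half-width of the 95% intervals had a median of 0.81 over the 9 genes.

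**Figure D3:**
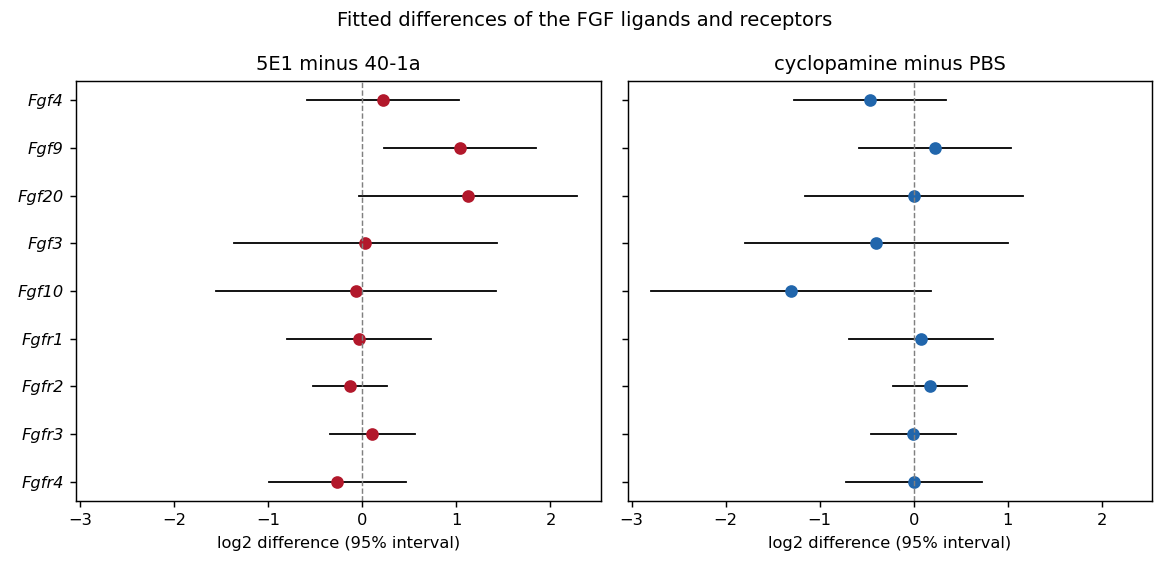
Fitted log2 differences (points) with 95% intervals (lines) on the horizontal axis for the 9 genes (rows), 5E1 minus 40-1a on the left and cyclopamine minus PBS on the right. Fgf9 at 1.04 was the only gene of the 9 whose interval excluded 0, from 0.23 to 1.85, before adjustment over all genes, and Fgf10 at -1.30 lay farthest from 0 under cyclopamine.

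**Figure D4:**
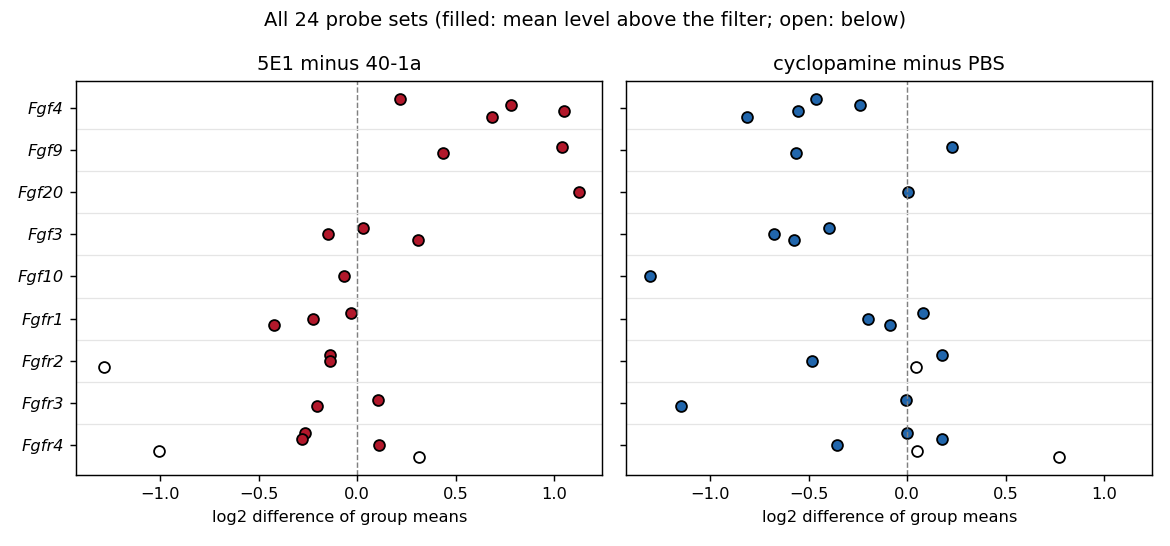
Log2 difference of group means (horizontal axis) for each of the 24 probe sets, grouped by gene (rows), 5E1 minus 40-1a on the left and cyclopamine minus PBS on the right, with filled points above the level filter and open points below it. All 4 Fgf4 probe sets lay above 0 in the left panel, from 0.22 to 1.05, and below 0 in the right panel, from -0.81 to -0.24.

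Cyclopamine against PBS is the comparison for the Smo antagonist. Its log2 differences were -0.27 (SE 0.30) for Ptch1, 0.082 (SE 0.40) for Gli1 and -0.63 (SE 0.46) for Hhip. These arrays therefore do not show that cyclopamine blocked the pathway. Fgf9 and Fgf20 overlapped between cyclopamine and PBS, with means of 228 ± 42.1 and 192 ± 23.8 for Fgf9 and of 191 ± 69.5 and 190.2 ± 66.5 for Fgf20 in cyclopamine and in PBS (SD, n = 2 each). Fgf4 was 0.46 lower on the log2 scale (SE 0.35, unadjusted p 0.221), but without PBS replicate 2 the difference was -0.098 and without PBS replicate 1 it was -0.83. All 4 Fgf4 probe sets had a log2 difference below 0, from -0.81 to -0.24, and on 1 of them the groups did not overlap. The 2 Fgf9 probe sets disagreed in direction, at 0.23 and -0.56. For Fgf20 the array cluster block moved the difference from 0.0023 (SE 0.50) to -0.55 (SE 0.24).

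Fgf10 had the difference farthest from 0 of the 9 genes under cyclopamine. It had 11.3 and 57.3 on the cyclopamine arrays, against 79.7 and 83.5 on the PBS arrays. Both cyclopamine arrays were lower than both PBS arrays and most of the gap came from cyclopamine replicate 1. The log2 difference was -1.30 (SE 0.64, 95% interval -2.79 to 0.18), with an unadjusted p of 0.0771 and a limma adjusted p of 0.983, so Fgf10 did not pass. The signal of 11.3 is below the filter signal, and the difference was -0.87 with a pseudocount of 32 and -1.63 with a pseudocount of 1. Without cyclopamine replicate 1, the array with the quality values given above, the difference was -0.45, and without cyclopamine replicate 2 it was -2.16. All 3 Fgf3 probe sets were also below 0, from -0.68 to -0.40, with overlapping arrays on 2 of them. Of the 14 dental mesenchyme markers 13 had a log2 difference below 0 in this comparison, and of the 13 dental epithelium markers 13 were above 0 and 9 did not overlap, with epithelium sums of 81670 to 103349 in cyclopamine and 63105 to 75331 in PBS. All 15 skeletal muscle markers were above 0, with a mean of 1.02 and 4 that did not overlap, as were 10 of 10 tested markers of suprabasal oral epithelium. Of all genes tested 53.1% were above 0 and 17.8% were higher without overlap. The part of these tissue differences in the Fgf10 and Fgf3 values was not tested.

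Among the receptors Fgfr2 alone was at least 1 SE from 0, at 0.18 (SE 0.17). Fgf4, Fgf10 and Fgfr2 were the 3 members this far from 0, as were 32.4% of all genes. The Fgfr2 direction turned to -0.086 with the mean of all probe sets and to -0.0078 without cyclopamine replicate 2. The other 6 genes lay between -0.40 and 0.23. In all, 0 of the 9 passed, against 0% of all genes tested, and none had an unadjusted p below 0.05 in limma, which 1.58% of all genes had. The arrays did not overlap for 1 gene that was lower, Fgf10, against 14.4% of all genes, and for 0 that were higher, against 17.8%. Over the 9 the median was 0.0010, against 0.022 over all genes, and 5 were above 0, as were 53.1% of all genes.

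Whether the antibody and cyclopamine differed in effect was tested as the difference between both comparisons. The enamel knot ligands were all above 0, meaning a higher value for 5E1 over 40-1a than for cyclopamine over PBS. The estimate was 0.81 for Fgf9 (SE 0.49, 95% interval -0.33 to 1.96, unadjusted p 0.139), 1.12 for Fgf20 (SE 0.71, 95% interval -0.52 to 2.76, unadjusted p 0.153) and 0.68 for Fgf4 (SE 0.49, unadjusted p 0.204). Fgf10 was at 1.24 (SE 0.91) and Fgfr2 at -0.31 (SE 0.24), and the other 4 genes lay between -0.27 and 0.43. These 5 genes were at least 1 SE from 0, as were 26.4% of all genes, and 0 of 9 passed, against 0% of all genes, with a limma adjusted p of 1.00 for each. The intervals of all 9 included 0 in this fit, and neither a difference in effect between the agents nor its absence was shown for any of them. The sizes depended on the fit. Fgf4 was at 1.20 (SE 0.44, unadjusted p 0.0255) with the mean of its probe sets. With the array cluster block Fgf20 was at 1.67 (SE 0.33, unadjusted p 0.00106) and Fgf9 at 1.11 (SE 0.36, unadjusted p 0.0171). Their limma adjusted p were 0.750 and 0.799. The block left 5E1 minus 40-1a as it was and moved cyclopamine minus PBS, to -0.55 (SE 0.24) for Fgf20 and -0.069 (SE 0.27) for Fgf9. Cyclopamine and PBS meet only in cluster 3, where the cyclopamine array is replicate 1, the one with the quality values given above. The lowest and highest estimates without 1 array were 0.32 and 1.31 for Fgf9, 0.50 and 1.74 for Fgf20, 0.32 and 1.05 for Fgf4, 0.38 and 2.09 for Fgf10, and -0.49 and -0.13 for Fgfr2.

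In 40-1a against PBS, 0 of the 9 passed limma's adjusted threshold, against 0% of all genes, and 8 lay within 1 SE of 0, between -0.22 and 0.28. Fgfr2 was 0.28 higher in 40-1a (SE 0.17, unadjusted p 0.144) with arrays that did not overlap, as for 9.71% of all genes, and without PBS replicate 2 the difference was 0.16, and with the array cluster block it was 0.12. It was the 1 gene at least 1 SE from 0, as were 17.3% of all genes. Ordering the 4 groups by mean log2 level, 5E1 came first for Fgf9, Fgf20 and Fgfr3, PBS for Fgf3, Fgf4 and Fgf10, 40-1a for Fgfr2 and Fgfr4, and cyclopamine for Fgfr1. Neighbours in that order did not overlap in 3 places only: between 5E1 and cyclopamine for Fgf9, and between 5E1 and 40-1a for Fgf20 and for Fgf4. Fgf3, Fgf4 and Fgf10 were lowest in cyclopamine, and Fgf9 and Fgf20 in PBS. Some places in the order rest on very small gaps, such as 0.0023 between cyclopamine and PBS for Fgf20 and 0.00037 between PBS and 5E1 for Fgf4. The order holds for the tested probe sets only. On the other Fgf9 probe set cyclopamine was lowest, at 160 and 162, against 267 and 221 in PBS.

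The feedback genes that FGF signalling induces were measured as a list of 12, chosen from knowledge of the pathway and with earlier results of these data known. Of the 11 tested, 8 were higher and 3 lower in 5E1 than in 40-1a, 0 passed, and the median log2 difference was 0.32, against -0.013 over all genes. Dusp6, a phosphatase that inactivates ERK, had a signal of 7063 and 6941 on the 5E1 arrays, against 4327 and 4476 on the 40-1a arrays, with 3759 and 3781 in cyclopamine and 4592 and 4660.1 in PBS. Its replicates lay close together, both 5E1 arrays were above the other 6, and both cyclopamine arrays were below the other 6, as for 2.71% of all genes. The log2 difference of 5E1 and 40-1a was 0.67 (SE 0.12, unadjusted p 0.000600, limma adjusted p 1.00), and that of cyclopamine and PBS was -0.29 (SE 0.12, unadjusted p 0.0410, limma adjusted p 0.983).

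Spry2, an inhibitor of receptor tyrosine kinase signalling, had 1756 and 1712 in 5E1, against 1098 and 1202 in 40-1a, with 1036 and 976 in cyclopamine and 1316 and 992 in PBS. Both 5E1 arrays again stood above the other 6. The log2 difference of 5E1 and 40-1a was 0.59 (SE 0.18, unadjusted p 0.0119), and 0.12 with the mean of its probe sets. Spry1, of the same family, was at 0.32 (SE 0.17), and 0.15 without 5E1 replicate 1. Dusp6 and Spry2 were the 2 of 11 with an unadjusted p below 0.05 and a higher value in 5E1, which 0.438% of all genes had. In cyclopamine against PBS 3 of the 11 were higher and 8 lower, with a median of -0.028.

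**Figure D5:**
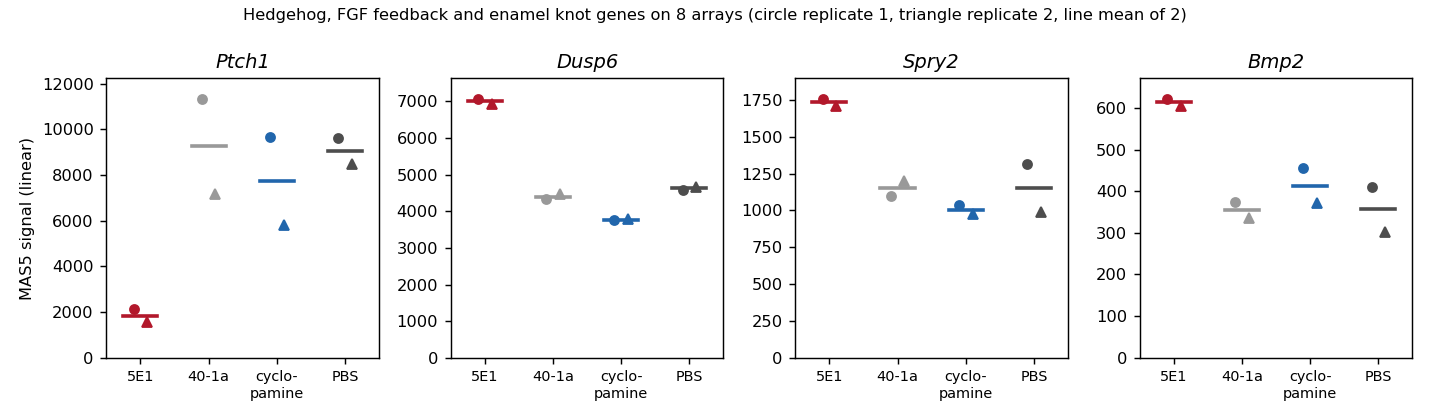
MAS5 signal on a linear scale (vertical axis, from 0) of Ptch1, Dusp6, Spry2 and Bmp2 by injection group (horizontal axis), with circles for replicate 1, triangles for replicate 2 and a line at the mean of 2 arrays. Dusp6 was at 7063 and 6941 on the 5E1 arrays and at 4660.1 or less on the other 6, while Ptch1 was lowest on the 5E1 arrays.

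A list of enamel knot genes other than FGFs was set beside Fgf4, Fgf9 and Fgf20. It includes Sostdc1, made around the knot, and Bmp4, also made in mesenchyme. Of the 12 tested, 9 were higher and 3 lower in 5E1 than in 40-1a, 0 passed, and the median was 0.49 and the mean 0.23. Over all 13 genes of the list, with Slit1, which is below the filter, the mean was 0.14 within cluster 1 and 0.20 within cluster 2. The summed signal of the 13 was lower in 5E1, at 22148 and 23966, against 25430 and 25605 in 40-1a. That sum includes Sostdc1, which had 5146 and 4400 in 5E1, against 12303 and 9416 in 40-1a, a larger drop than that of the sum. The lower sum is therefore not a lower signal of the other genes of the list. Bmp2, a BMP ligand, had 621 and 606 in 5E1, against 373 and 335 in 40-1a, with a log2 difference of 0.78 (SE 0.23, unadjusted p 0.00963). Bmp7, of the same family, was at 0.60 (SE 0.22), and 0.39 without 40-1a replicate 1. Sostdc1, a secreted antagonist of BMP and Wnt that is made around rather than in the knot, was lower, at -1.18 (SE 0.20). Shh itself, which the knot secretes, was at 0.52 (SE 0.27) with arrays that did not overlap, and Bmp4, a BMP ligand of knot and mesenchyme, at -0.72 (SE 0.44). Both were chosen for mention after their values were seen. In cyclopamine against PBS the 12 had a median of -0.11, with 4 higher and 8 lower.

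The rest of the FGF pathway was described by list in 5E1 against 40-1a. Of 13 other secreted FGF ligands 6 were tested, with 3 higher, 3 lower and a median of -0.014. The 4 intracellular FGF homologous factors, which act on ion channels and not on FGF receptors, were all lower, at -0.28 to -0.011 with a median of -0.11, with overlapping arrays. Of 17 co-receptors and binding proteins 15 were tested, with 8 higher and 7 lower and a median of 0.0017. Hspg2, the heparan sulphate proteoglycan perlecan, was at -0.33 (SE 0.18), and -0.19 without 5E1 replicate 1, and Gpc4, a glypican, at -0.17 (SE 0.15), and -0.069 without that array. The 9 heparan sulphate enzymes tested had a median of 0.047, with 6 higher and 3 lower. The 14 tested genes of signal transduction had a median of -0.018, with 6 higher and 8 lower, and none of them had groups that did not overlap. Of all genes 8.66% were higher and 10.8% lower without overlap. No gene of these 5 lists passed the limma test.

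Over the 8 arrays Fgf9 and Fgf20 were the pair of members most alike, with a Pearson r of 0.94 and a Spearman rho of 0.90 of log2 values. All correlations here are over arrays that share clusters, replicates and the 5E1 pair, and they are given as a description. Without the 2 arrays farthest from the median of Fgf9, which were both 5E1 arrays, r was 0.68 over 6 arrays. The genes of all 13008 with the pattern most like Fgf9 were Gadd45g (r = 0.98), Myc (r = 0.95) and Proser2 (r = 0.95), and for Gadd45g and Myc r was 0.83 and 0.78 over the 6 other arrays. Those most like Fgf20 were Utp18 (r = 0.97), Gm9918 (r = 0.97) and Shh (r = 0.96). For Fgf20 and Shh r was 0.99 without 5E1 replicate 2 and cyclopamine replicate 1, the 2 arrays farthest from the median of Fgf20. Shh was picked for its high r on these same 8 arrays, so this value adds no support. Both Fgf20 and Shh were higher on replicate 2 than on replicate 1 in every group.

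The other members had neighbours of their own. Fgf4 was most like Gpr108 (r = 0.95), Mtap and Zfp772 (r = 0.93 each), Fgf3 most like Me3 (r = 0.98), Spock1 and Fam135a (r = 0.97 each), and Fgf10 most like Dsn1, Vat1l (r = 0.97 each) and Lipo2 (r = 0.96). Fgfr1 was most like Synpo (r = 0.99), Fbxo16 and Ext1 (r = 0.97 each), where Ext1 encodes an enzyme of heparan sulphate synthesis. Fgfr2 was most like Dynll1 (r = 0.97), Kcnq1ot1 and Slc38a7 (r = 0.93 each), Fgfr3 most like Myod1, Ap5z1 (r = 0.96 each) and Wdr3 (r = 0.93), and Fgfr4 most like H2-D1 (r = 0.97), Dlx4 and Il20 (r = 0.94 each). No member was among the 3 genes most like another. Fgfr1 and Fgfr2 ran in opposite directions, with r of -0.75 over 8 arrays and -0.48 over 6 without the arrays of cluster 3.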

How the data were processed

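The deposited unit is MAS5 intensity, linear, 1 value per probe set and array, per the submitters' processing notes. The MAS5 version is not given in the sources used here. Every deposited array had a mean signal of 500 after 2% trimming, so no further scaling was applied. Probe sets annotated with 1 gene were used, the one with the highest mean log2 value per gene, on the log2 scale after adding 9, the rounded 10th percentile of the deposited signals. A level filter at the 40th percentile over probe sets (log2 6.12, a signal of 60.3) kept 13008 of 18193 genes. A single limma 3.58.1 fit (R 4.3.3, eBayes with trend) of 4 group means to 8 arrays, with 4 residual degrees of freedom, gave 4 comparisons, with Benjamini-Hochberg adjustment over 13008 genes and a threshold of 0.05. The number of arrays limits the precision. Sequences and positions are RefSeq's on GRCm38.p6.

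The members and lists were chosen with earlier results of these data known. The text names all 9 members, gives each difference of at least 1 SE and the rest as a range, and names up to 3 genes of each pathway list by unadjusted p in 5E1 minus 40-1a and the 3 genes most like each member. The alternatives were quantile normalisation, pseudocounts of 1 and 32, no filter, the mean of probe sets, each probe set alone, no trend, a replicate block, each array left out, a 2-fold rule and, added after seeing the data, the array clusters as a block.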

Additional observations from a re-analysis of the deposited data

How the results depend on the processing

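The direction held in all alternatives for 22 of 24 single-gene differences. Those 24 were mostly picked for a difference of at least 1 SE or for a small p within a list. Much of this was fixed in advance, so the count adds little support. No filter, each probe set alone, no trend and the replicate block leave the estimate as it was. Leaving out 1 array cannot turn a difference between 2 groups that do not overlap. The exceptions were Fgfr2 in cyclopamine minus PBS, at -0.086 with the mean of probe sets and -0.0078 to 0.36 with 1 array left out, and Pik3r1, a subunit of PI 3-kinase, in 5E1 minus 40-1a, at -0.12 to 0.79 with 1 array left out, where the negative values came without cyclopamine replicate 2 and without 40-1a replicate 1. The cause was not tested. Differences outside these 24 turned too. In cyclopamine minus PBS, Fgf9 went from 0.23 to -0.17 with the mean of probe sets and to -0.069 with the array cluster block. That block took Fgf20 from 0.0023 to -0.55, and the mean of probe sets took Fgfr1 from 0.081 to -0.069. Over 17 refitted alternatives and 4 comparisons, 608 values of the 9 members included 0 that passed limma's adjusted threshold, and Fgfr4 had no value with the mean of probe sets, where it fell below the filter. In 5E1 minus 40-1a the adjusted p ran from 0.521 to 1.00 for Fgf20 and from 0.676 to 1.00 for Fgf9, lowest with the array cluster block. The counts of genes called were 0 in each comparison and stayed 0 to 0 with any array left out. In 5E1 minus 40-1a the count was 1 with the replicate block (Ptch1) and 3 with the array cluster block (Ptch1, Gli1 and Sostdc1), and that block gave 3 for the difference of effects (Ptch1, Gli1 and Fos). The clusters were found on these same arrays. At 2-fold without overlap, a rule with no test, the counts were 87 for 5E1 minus 40-1a, with Fgf9 and Fgf20 among them, 124 for cyclopamine minus PBS, with Fgf10 among them, and 54 for 40-1a minus PBS, with no member. Replicates of the same number share only a number in the labels. Their deviations from the group means correlated at 0.59 between 5E1 and 40-1a, at 0.32 to 0.41 for 4 further pairs of groups and at 0.0016 between cyclopamine and PBS. The replicate block called 0 genes in the other 3 comparisons. It left the differences as they were, and the SE in 5E1 minus 40-1a was 0.24 for Fgf20 (unadjusted p 0.00149) and 0.26 for Fgf9 (unadjusted p 0.00458), with limma adjusted p of 1.00. Fgf10, Fgf4 and Fgfr4 are dim, near the filter signal of 60.3, which limits their precision.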
